A study of Homo sapiens with 9 samples.

Results

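The 9 genes described here encode the classical MHC class I heavy chains HLA-B and HLA-C, the nonclassical heavy chains HLA-E and HLA-F, their light chain B2M, the peptide transporter subunits TAP1 and TAP2, the loading chaperone TAPBP (tapasin) and the transcriptional coactivator NLRC5. They were chosen by gene name for their role in antigen presentation and all 9 were listed in both deposited tables, among 16008 genes in both. RNA-Seq was performed on tumors formed by PC3, a human prostate cancer cell line derived from a bone metastasis, grown under the skin of male NSG mice, which lack T, B and NK cells. Per the series record, mice were 11 weeks old at injection and tumors were about 90 mm3 when weekly treatment began, for 5 cycles. The study's methods give these values for an initial experiment with T-DXd alone at another dose. For the experiment with both conjugates at 5 mg/kg they give another age, volume and number of cycles. Vehicle-treated mice, which received PBS, gave 3 libraries, a further 3 carry P-DXd in their title and 3 carry T-DXd, with each conjugate given at 5 mg/kg. P-DXd (patritumab deruxtecan) carries an antibody to HER3 and T-DXd (trastuzumab deruxtecan) an antibody to HER2, and both deliver deruxtecan, an inhibitor of topoisomerase I. For the 6 treated libraries the title and the treatment field name opposite conjugates, so groups are named by title (P-DXd-titled, T-DXd-titled), and the comparison of all 6 with PBS holds whichever record is right. All groups share the cell line, the host strain and the subcutaneous site, and tumors were taken at the end of the experiment. The labels do not say that libraries of a group came from separate animals, so p-values measure the spread between these libraries.

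Libraries held 54481702 to 125538670 counts in total, and the 3 PBS libraries were the deepest. The 9 genes together took 0.295% to 0.468% of all counts in PBS libraries and 0.971% to 1.34% in treated libraries. Epithelial genes and genes that PC3 cells express were abundant in every library, at a summed 3673 to 4696 CPM (counts scaled to library size, per 1e+06) in PBS and 5344 to 5898 CPM in treated libraries over 8 genes. KLK3 and KLK2, markers of luminal prostate cells that PC3 cells lack, were not among the genes listed in both tables. Some libraries stood apart. PBS replicate 1 differed from the other PBS libraries more than these differed from each other (chi-square per gene 321 and 396, against 38), and P-DXd-titled replicate 2 held 4804 CPM of 10 skeletal muscle genes, where the other treated libraries held 78.2 to 269 CPM and PBS libraries 2.08 to 51.0 CPM. For the 9 genes and their summed HLA counts, results are given below without these libraries where that changes a call. Calls in the lists of other genes were not examined without these libraries. Mouse reads that align to human genes are not set apart in the tables, and in bulk tumors fewer cells of a type and less RNA per cell cannot be told apart.

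Class I molecules display peptides from the cell interior on the surface. Peptides are cut by the proteasome, in which the interferon-inducible subunits PSMB8, PSMB9 and PSMB10 can replace constitutive ones, pumped into the endoplasmic reticulum by the TAP1-TAP2 heterodimer, and loaded with the help of tapasin onto a heavy chain paired with B2M. Heavy chain and B2M genes share a promoter layout in which an interferon-stimulated response element, bound by IRF1 and its relatives, lies upstream of elements bound by RFX, CREB/ATF and NF-Y, on which NLRC5 assembles. Tumors often express class I genes at a low level while these remain inducible.

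The promoters of the genes whose levels are compared below show which of these elements their sequence holds. The 200 bases before the annotated RNA start are printed 5′ to 3′ along the gene from RefSeq (GRCh38.p14). Capitals mark matches, on either strand, to GAAANNGAAA and GAANNGAAAC (forms of the interferon-stimulated response element, which can overlap each other), TGACG (the core of a CREB/ATF site) and CCAAT (the NF-Y box). The form GAANNGAAAC was added after the sequences had been read.
HLA-B, chr6:31357180-31357379, minus strand: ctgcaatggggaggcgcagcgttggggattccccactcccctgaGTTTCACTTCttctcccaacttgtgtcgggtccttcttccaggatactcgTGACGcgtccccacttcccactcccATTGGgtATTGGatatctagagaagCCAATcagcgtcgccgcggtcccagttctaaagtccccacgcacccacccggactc
HLA-C, chr6:31272093-31272292, minus strand: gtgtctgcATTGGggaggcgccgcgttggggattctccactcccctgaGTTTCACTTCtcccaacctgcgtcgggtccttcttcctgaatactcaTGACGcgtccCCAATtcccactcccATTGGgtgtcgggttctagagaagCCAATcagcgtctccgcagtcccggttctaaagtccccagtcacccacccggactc
B2M, chr15:44711317-44711516, plus strand: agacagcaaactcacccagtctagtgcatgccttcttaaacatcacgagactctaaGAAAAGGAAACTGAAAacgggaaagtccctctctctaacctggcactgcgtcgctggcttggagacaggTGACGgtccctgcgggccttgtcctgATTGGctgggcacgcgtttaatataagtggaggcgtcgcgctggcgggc
TAP1, chr6:32853705-32853904, minus strand: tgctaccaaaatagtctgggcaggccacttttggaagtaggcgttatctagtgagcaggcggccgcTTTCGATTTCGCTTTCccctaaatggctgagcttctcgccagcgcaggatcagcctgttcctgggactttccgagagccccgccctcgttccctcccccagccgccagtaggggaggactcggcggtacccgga
TAP2, chr6:32838740-32838939, minus strand: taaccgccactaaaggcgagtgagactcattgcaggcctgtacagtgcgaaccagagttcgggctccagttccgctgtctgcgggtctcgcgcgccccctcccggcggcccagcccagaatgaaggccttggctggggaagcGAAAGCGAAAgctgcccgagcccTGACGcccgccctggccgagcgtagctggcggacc
Of the 7 genes with a promoter in the table used (HLA-E and NLRC5 had no entry), HLA-B and HLA-C held GAANNGAAAC on the antisense strand. GAAANNGAAA was found in HLA-F, B2M, TAP1, TAP2 and TAPBP. Over 35116 promoters, windows of the same length held GAANNGAAAC in 0.982% and GAAANNGAAA in 2.4%. TGACG was found in HLA-B, HLA-C, B2M and TAP2 (18.4% of all windows) and CCAAT in HLA-B, HLA-C, HLA-F and B2M (28% of all windows). TAP1 had a further annotated start, whose window is not printed and had no match to these 4 forms. A match is only a run of letters and does not show that a factor binds there.

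The first question was how the genes stood in residual tumors compared with vehicle. HLA-B, HLA-C, HLA-E, HLA-F, B2M, TAP1 and TAPBP were higher after treatment, by 1.55-fold to 4.95-fold, while TAP2 and NLRC5 did not pass the test. A call needed an adjusted p no higher than 0.05 in edgeR's quasi-likelihood test together with a 1.5-fold difference. By this rule 7 of 9 genes were called higher and 0 lower in all treated libraries compared with PBS, where 15.2% of the 15070 genes tested were called higher and 17.1% lower. The same 7 genes were called in P-DXd-titled xenografts, against 11.2% of genes called higher and 13.8% lower, and in T-DXd-titled xenografts, against 13.1% and 15.5%. These comparisons share the PBS libraries. Every treated library lay above every PBS library for the same 7 genes, as it did for 25% of all genes. The median log2 fold change of the 9 genes was 1.19, and that of all genes tested was -0.01.

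**Figure D1:**
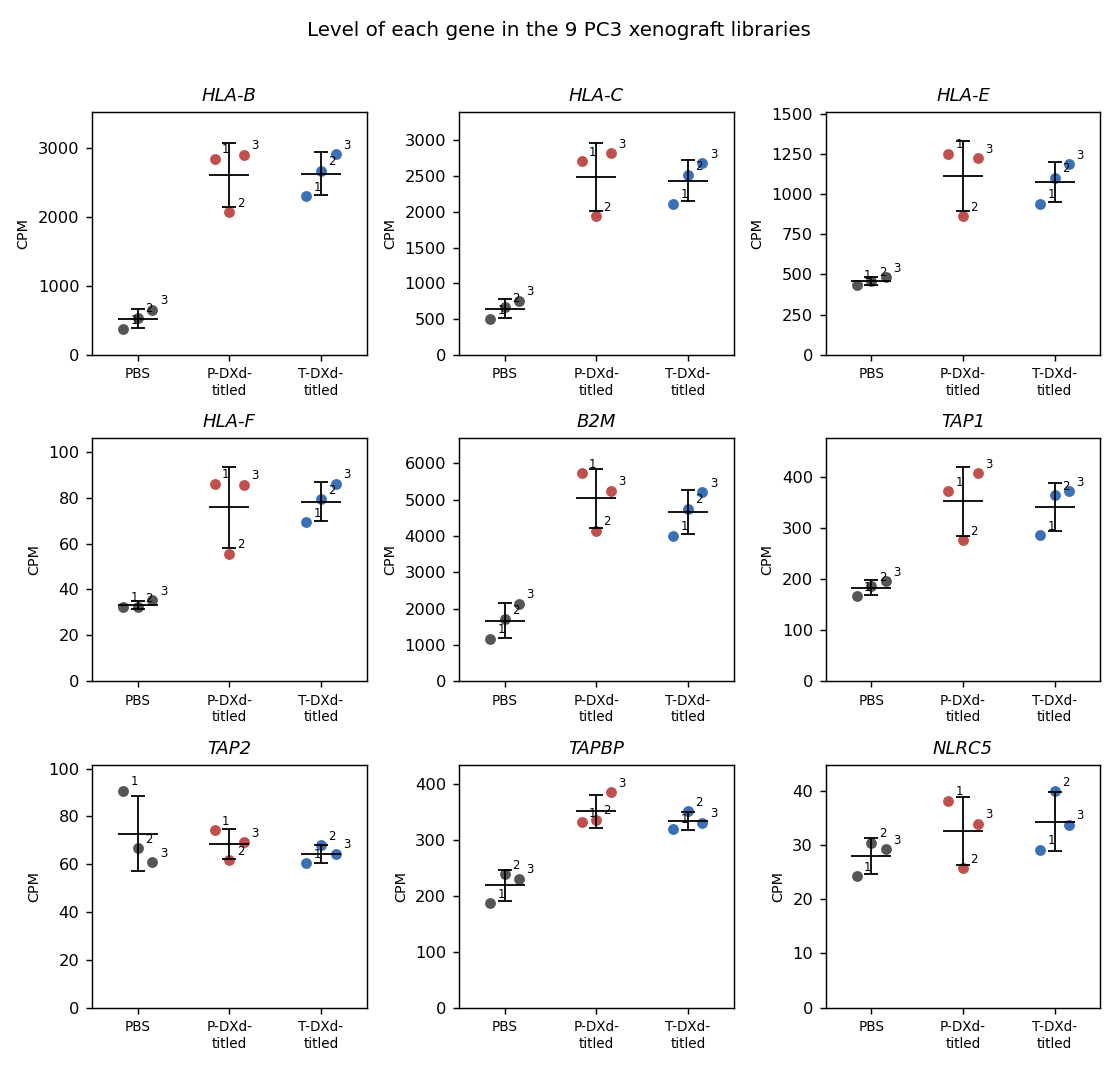
Level of each of the 9 genes in CPM (vertical axes, from 0) in the 3 groups, with 1 numbered point per library, the group mean as a horizontal line and the SD as bars (n = 3). For HLA-B the PBS libraries lie at 374 to 653 CPM and the treated libraries at 2066 to 2908 CPM, whereas the groups overlap for TAP2 and NLRC5.

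HLA-B (ENSG00000234745.5) and HLA-C (ENSG00000204525.10) are classical heavy chains that present peptides to CD8 T cells and bind inhibitory receptors of NK cells. The tables list HLA-B at chr6:31321649-31324965 and HLA-C at chr6:31236526-31239907, whose build is not stated there. HLA-B stood at 374, 537 and 653 CPM in the PBS libraries, 2845, 2066 and 2898 CPM in the P-DXd-titled libraries, and 2297, 2671 and 2908 CPM in the T-DXd-titled libraries, with replicates 1 to 3 in order here and in all such sentences. It had the largest difference of the 9 genes, and the lowest treated library was above the highest PBS library by more than the whole PBS range. In all treated libraries compared with PBS its log2 fold change was 2.31 (SE 0.19, adjusted p 7.01e-06), a fold of 4.95 (95% confidence interval 3.72 to 6.58).

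HLA-C stood at 499, 669 and 759 CPM in the PBS libraries, 2706, 1941 and 2824 CPM in the P-DXd-titled libraries, and 2116, 2515 and 2680 CPM in the T-DXd-titled libraries. Its log2 fold change was 1.92 (SE 0.16, adjusted p 9.94e-06), a fold of 3.78 (2.94 to 4.87). The same libraries were low for both genes, namely replicate 1 of PBS, replicate 2 of the P-DXd-titled group and replicate 1 of the T-DXd-titled group, and the treated groups stayed clear of PBS all the same.

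HLA-E (ENSG00000204592.5, chr6:30457244-30461982) presents leader peptides of other class I chains to CD94/NKG2 receptors of NK cells. It stood at 436, 457 and 481 CPM in the PBS libraries, 1253, 863 and 1224 CPM in the P-DXd-titled libraries, and 941, 1102 and 1186 CPM in the T-DXd-titled libraries. The PBS libraries lay close together and every treated library was well above them, with a log2 fold change of 1.24 (SE 0.13, adjusted p 2.88e-05). HLA-F (ENSG00000204642.9, chr6:29690552-29706305), a nonclassical chain that can reach the surface without peptide, was the least abundant heavy chain. It stood at 32.6, 32.2 and 35.2 CPM in the PBS libraries, 86.1, 55.6 and 85.6 CPM in the P-DXd-titled libraries, and 69.4, 79.4 and 86.1 CPM in the T-DXd-titled libraries, and its log2 fold change was 1.19 (SE 0.14, adjusted p 6.04e-05). The nonclassical chains thus rose by 2.36-fold and 2.28-fold, and the confidence intervals of their folds (1.94 to 2.86 and 1.84 to 2.82) lay below those of HLA-B and HLA-C.

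Because reads can be shared between HLA loci, the counts of HLA-B, HLA-C, HLA-E and HLA-F were also summed and tested as a single row of the table. The sum was 1.90 higher on the log2 scale in all treated libraries (SE 0.16, adjusted p 8.06e-06), by 1.92 in P-DXd-titled xenografts (SE 0.19, adjusted p 0.00162) and by 1.89 in T-DXd-titled xenografts (SE 0.16, adjusted p 0.000614). In the reference transcripts of GENCODE release 44, 2.06% of the 75-base windows of HLA-E, 1.98% of those of HLA-C and 0% of those of HLA-B and HLA-F were found word for word in a transcript of another HLA gene, and 0% of 150-base windows were. The reference holds 1 allele per locus, and PC3 alleles that differ from it were not examined, so the division of counts between loci stays less certain than their sum.

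B2M (ENSG00000166710.13, chr15:45003675-45011075), the light chain required by every classical heavy chain, lies outside the MHC region. It stood at 1170, 1704 and 2139 CPM in the PBS libraries, 5724, 4140 and 5245 CPM in the P-DXd-titled libraries, and 4006, 4751 and 5197 CPM in the T-DXd-titled libraries. The lowest treated library was 4006 CPM and the highest PBS library 2139 CPM. The log2 fold change was 1.52 (SE 0.19, adjusted p 8.55e-05), a fold of 2.86 (2.15 to 3.81). B2M varied most among the PBS libraries (coefficient of variation 29.0%), followed by HLA-B (26.9%), whereas HLA-E and HLA-F varied by 4.99% and 5.00%.

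TAP1 (ENSG00000168394.9, chr6:32812986-32821755) and TAP2 (ENSG00000204267.9, chr6:32789610-32806557) encode the subunits of a transporter that works as a heterodimer, and the genes are neighbors. TAP1 stood at 167, 187 and 196 CPM in the PBS libraries, 372, 277 and 408 CPM in the P-DXd-titled libraries, and 287, 365 and 373 CPM in the T-DXd-titled libraries. It did not overlap between treated and PBS libraries and its log2 fold change was 0.90 (SE 0.13, adjusted p 0.000231). The span listed for TAP1 lies wholly within that listed for PSMB9, and use of strand in counting is not stated, so reads of one could be counted for the other. TAP2 stood at 90.7, 66.7 and 60.9 CPM in the PBS libraries, 74.3, 61.8 and 69.3 CPM in the P-DXd-titled libraries, and 60.4, 68.0 and 64.4 CPM in the T-DXd-titled libraries. The groups overlapped, with PBS replicate 1 highest of all 9 libraries. The log2 fold change of TAP2 was -0.16 (SE 0.12, adjusted p 0.297), with a 95% confidence interval of -0.43 to 0.11. A rise of the size seen for TAP1 lies outside this interval.

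TAPBP (ENSG00000231925.7, chr6:33267471-33282164) bridges TAP and the empty heavy chain. It stood at 187, 238 and 230 CPM in the PBS libraries, 331, 336 and 384 CPM in the P-DXd-titled libraries, and 320, 351 and 330 CPM in the T-DXd-titled libraries. All treated libraries were above all PBS libraries, and the log2 fold change was 0.63 (SE 0.09, adjusted p 0.000222), close to the minimum fold of the call. Without PBS replicate 1 it was 0.54 (adjusted p 6.79e-05), below that minimum, so that 6 genes were called rather than 7, and without P-DXd-titled replicate 2 all 7 were called. NLRC5 (ENSG00000140853.11, chr16:57023397-57117443), the coactivator of class I genes, stood at 24.3, 30.4 and 29.2 CPM in the PBS libraries, 38.2, 25.7 and 33.9 CPM in the P-DXd-titled libraries, and 29.1, 40.0 and 33.7 CPM in the T-DXd-titled libraries. The groups overlapped and the log2 fold change was 0.24 (SE 0.14, adjusted p 0.165), with a confidence interval of the fold from 0.954 to 1.46.

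**Figure D2:**
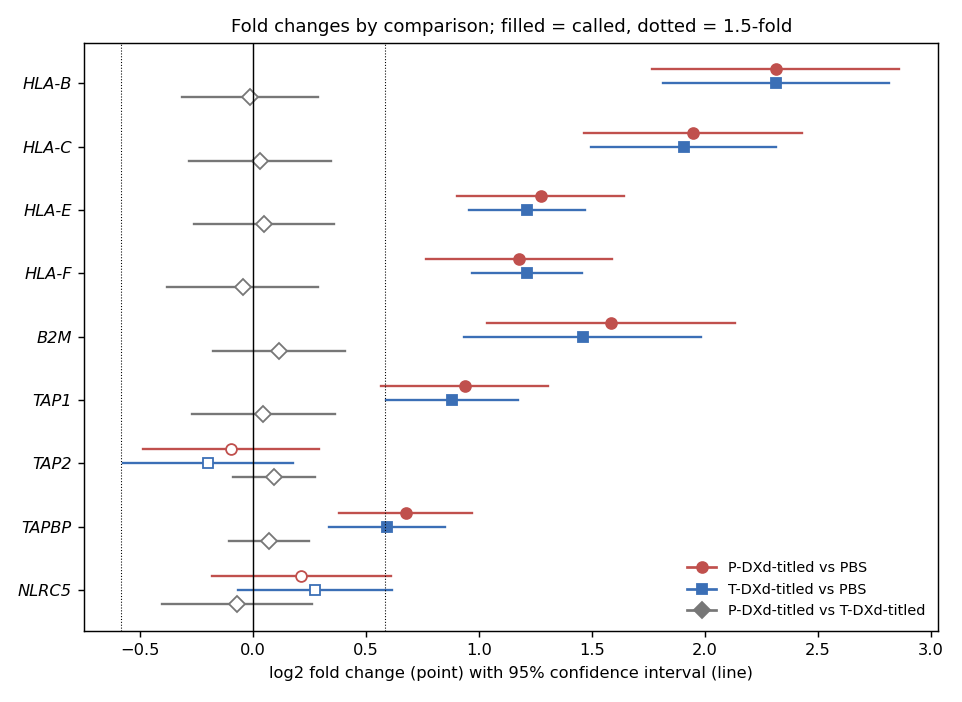
Log2 fold change (horizontal axis) of each gene with its 95% confidence interval, for each conjugate group compared with PBS and for the conjugate groups compared with each other. Filled symbols passed the rule for a call and dotted lines mark a fold of 1.5. HLA-B lies farthest to the right (2.31 and 2.32), TAP2 lies left of 0 for both conjugate groups (-0.10 and -0.20), and all intervals of the comparison between conjugate groups span 0.

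The second question was whether the conjugates, which share the payload and differ in the antibody, left different levels of these genes at the same dose. Of the 9 genes, 0 were called between the conjugate groups by edgeR, 0 had an unadjusted p under 0.05 and 0 were called by DESeq2. Over all 14653 genes tested, 0.0273% were called higher in P-DXd-titled xenografts and 0% lower. The adjusted p was 0.999827 for each gene. HLA-B differed least, at means of 2603 ± 466 CPM and 2625 ± 308 CPM (SD, n = 3), with a fold of 0.992 (95% confidence interval 0.805 to 1.22). B2M differed most, at 5036 ± 812 and 4652 ± 602 CPM, with a log2 fold change of 0.11 (fold 0.883 to 1.33). Over the 9 genes the intervals ran from 0.756 at the lowest end, for NLRC5, to 1.33 at the highest. Smaller differences between the conjugates could not be seen with 3 libraries per group, and a missed threshold does not show that they act alike.

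Levels of different genes can be compared only per transcript length. On the scale of CPM per kilobase of the canonical GENCODE transcript, B2M was highest in PBS libraries at 1772 ± 515 (SD, n = 3), followed by HLA-C at 417 ± 85.8, HLA-B at 339 ± 91.3, HLA-E at 180 ± 8.97, TAP1 at 68.2 ± 5.49, TAPBP at 63.3 ± 8.06, HLA-F at 22.5 ± 1.13, TAP2 at 12.9 ± 2.80 and NLRC5 at 4.13 ± 0.482. HLA-C and HLA-B overlapped in this order, as did TAP1 and TAPBP, and the other neighbors did not. In P-DXd-titled xenografts B2M stood at 5341 ± 861, HLA-B at 1695 ± 303, HLA-C at 1615 ± 311 and HLA-E at 437 ± 85.2 CPM per kilobase, and in T-DXd-titled xenografts at 4933 ± 638, 1709 ± 201, 1580 ± 188 and 423 ± 48.8. TAP1 (131 ± 25.3 and 127 ± 17.7) stood far above TAP2 (10.7 to 13.2) per length in treated xenografts.

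To compare genes without any scaling between libraries, the ratio of their counts was taken within each library. The ratio of HLA-B to HLA-C was 0.750, 0.802 and 0.861 in the PBS libraries, 1.05, 1.06 and 1.03 in the P-DXd-titled libraries, and 1.09, 1.06 and 1.09 in the T-DXd-titled libraries. HLA-C thus had more counts than HLA-B in every PBS library and fewer in every treated library. The mean log2 ratio differed by 0.40, with an SD of 0.10 among PBS and 0.03 among treated libraries. The ratio of HLA-B to B2M was 0.319, 0.315 and 0.305 in PBS and 0.497 to 0.573 in the 6 treated libraries, a difference of 0.78 in mean log2 ratio. This ratio varied by an SD of 0.03 on the log2 scale among PBS libraries, in which the levels of HLA-B and B2M themselves varied widely.

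The ratio of HLA-C to B2M was 0.426, 0.393 and 0.355 in PBS and 0.469 to 0.538 in treated libraries, a difference of 0.38. The ratio of TAP1 to TAP2 was 1.84, 2.80 and 3.22 in PBS and 4.48 to 5.89 in treated libraries, a difference of 1.02. In each of the 4 ratios every treated library was above every PBS library. In the exact two-sided permutation test over 84 divisions of the 9 libraries p was 0.0238 for each ratio, the smallest that the test can give, and 0.0238 when adjusted over the 4. By these ratios, the difference between treated and PBS libraries was larger for HLA-B than for HLA-C, and larger for each of these than for B2M. It was also larger for TAP1 than for TAP2. The pairs were chosen with earlier results of these data known. For HLA-B and HLA-C the division of counts between loci is uncertain, as said above.

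**Figure D3:**
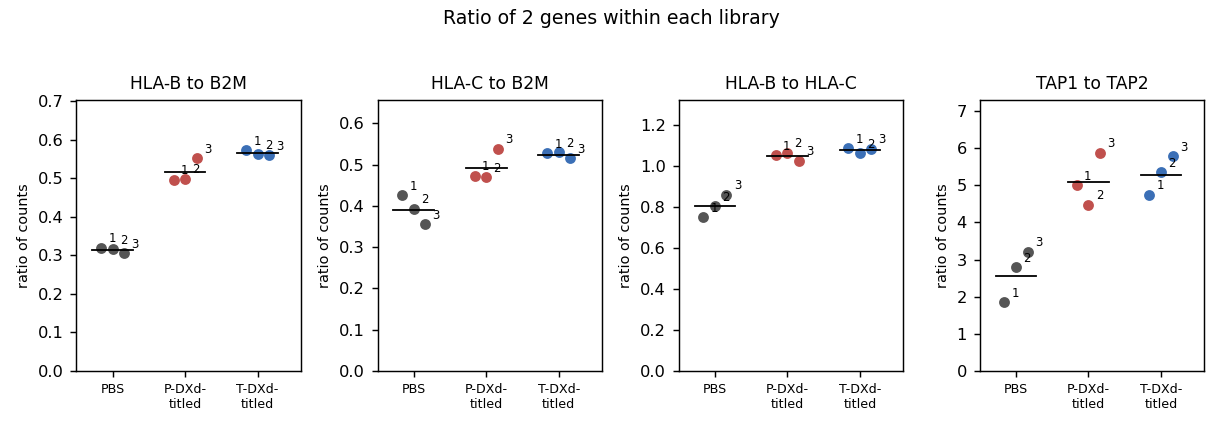
Ratio of the counts of 2 genes within each library (vertical axes, from 0), with 1 numbered point per library and the geometric mean of each group as a line. All treated libraries lie above all PBS libraries in each panel, and for HLA-B to HLA-C the points cross from below 1 in PBS (0.750 to 0.861) to above 1 after treatment (1.03 to 1.09).

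The other genes of the pathway were examined as lists. In all treated libraries 15.2% of all genes tested were called higher and 17.1% lower. A count of calls near these shares is no result about a list. Of 12 genes of peptide supply and trimming, 3 rose and 2 fell in all treated libraries, and 7 were not called. Those that rose were the interferon-inducible proteasome subunits. PSMB10 rose from 3.68 to 4.49 CPM in PBS libraries to 9.42 to 13.2 CPM in treated libraries (fold 2.64, adjusted p 2.94e-05). PSMB9, which overlaps TAP1, went from 45.4 ± 6.22 CPM in PBS to 98.7 ± 16.4 and 96.1 ± 17.5 CPM in the treated groups (fold 2.11, adjusted p 0.000165). PSMB8 had a log2 fold change of 0.78 (SE 0.10, adjusted p 0.000146). The cytosolic peptidases TPP2 (-0.79, SE 0.09, adjusted p 5.13e-05) and THOP1 (-0.79, SE 0.11, adjusted p 0.000182), which cut peptides outside the endoplasmic reticulum, fell. The median of this list was 0.04. Adjusted p was at or below 0.05 for 8 of the 12, among them ERAP1 (0.51, SE 0.07, adjusted p 0.000147), whose fold was below the minimum of the call.

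Of 14 constitutive proteasome subunits, 0 were called in either direction by edgeR in any comparison with PBS, and their log2 fold changes ran from -0.27 to 0.37 (median 0.07). In all treated libraries adjusted p was at or below 0.05 for 4 of them, PSMB4, PSMB6, PSMB7 and PSMA5, each at a fold below 1.5, the unadjusted p was under 0.05 for the same number, and DESeq2 called 0. Of 10 general chaperones and editors of loading, which include calreticulin, calnexin, PDIA3 and the tapasin relative TAPBPL, 0 were called by edgeR or DESeq2 (median 0.10), and 6 had an unadjusted p under 0.05. TAPBPL had a log2 fold change of 0.40 (SE 0.17, adjusted p 0.0692). Of 3 class I-like molecules tested that pair with B2M, 2 rose. FCGRT, the heavy chain of the neonatal Fc receptor, which binds IgG, went from 37.8 ± 9.48 CPM in PBS to 79.3 ± 8.51 and 77.5 ± 8.10 CPM in the treated groups (log2 fold change 1.03, SE 0.15, adjusted p 0.000220), and MR1, which presents vitamin B metabolites, had a log2 fold change of 0.71 (SE 0.17, adjusted p 0.00539). CD1D was not listed in both tables.

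Of 14 genes that act on class I transcription, IRF1 rose, RFXAP fell and 12 were not called (median -0.05). Adjusted p was at or below 0.05 for 9 of the 14. With a fold below 1.5, RFX5, RFXANK, NFYA, NFYB and NFKB1 were lower and NFYC and IRF2 higher. IRF1 went from 42.8 ± 8.87 CPM in PBS to 121 ± 18.7 and 121 ± 9.10 CPM in the treated groups (log2 fold change 1.48, SE 0.14, adjusted p 1.77e-05), and RFXAP, a subunit of the RFX complex, had a log2 fold change of -0.78 (SE 0.14, adjusted p 0.000847). Of 13 genes of the interferon gamma pathway, 3 rose and 2 fell (median 0.23). Adjusted p was at or below 0.05 for 7 of the 13, including JAK1 (0.47) and PIAS1 (0.24), both at a fold below 1.5. IRF8 (2.12, SE 0.56, adjusted p 0.00856) had the largest rise, at 0.163 ± 0.126 CPM in PBS and 0.689 ± 0.372 and 0.733 ± 0.274 CPM in the treated groups, followed by IRF1, which is in both lists. IRF9, the DNA-binding subunit of the type I interferon complex ISGF3, fell by 2.48 on the log2 scale (SE 0.27, adjusted p 4.44e-05), and PTPN2, a phosphatase that dampens cytokine receptor signaling, fell by 0.62 (SE 0.11, adjusted p 0.000846). IFNGR1, a chain of the interferon gamma receptor, also rose (0.59, SE 0.06, adjusted p 3.45e-05). The list holds genes that carry the signal and genes that dampen it. The counts of rises and falls therefore do not measure the activity of the pathway, which was not tested.

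**Figure D4:**
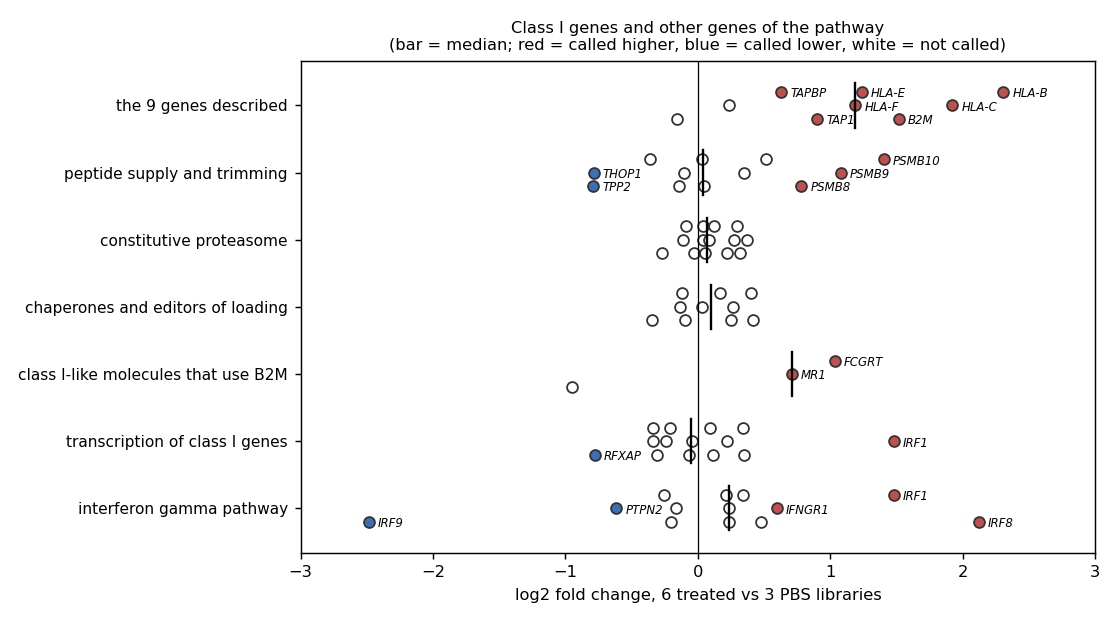
Log2 fold change in all treated compared with PBS libraries (horizontal axis) of the 9 genes and of the tested members of 6 lists of pathway genes, with 1 point per gene. Vertical bars mark the medians, 1.19 for the 9 genes and between -0.05 and 0.71 for the lists, and called genes are named.

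Class II genes were low in all libraries. Of 15 genes of class II presentation, 11 were tested, 5 rose and 1 fell, and their summed level was 13.2 to 22.7 CPM in PBS and 18.6 to 20.0 CPM in treated libraries. CD74, the invariant chain, stood at 0.772 ± 0.267 CPM in PBS and at 2.81 ± 0.580 and 2.43 ± 0.257 CPM in treated groups. CIITA, the class II relative of NLRC5, had a log2 fold change of -0.22 (SE 0.36, adjusted p 0.622). HLA-DPA1 fell by 2.05 on the log2 scale (SE 0.24, adjusted p 5.71e-05), HLA-DQA1 rose by 2.43 (SE 0.61, adjusted p 0.00629), and HLA-DRA had 0 counts in each PBS library and at most 0.263 CPM in a treated library.

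**Figure D5:**
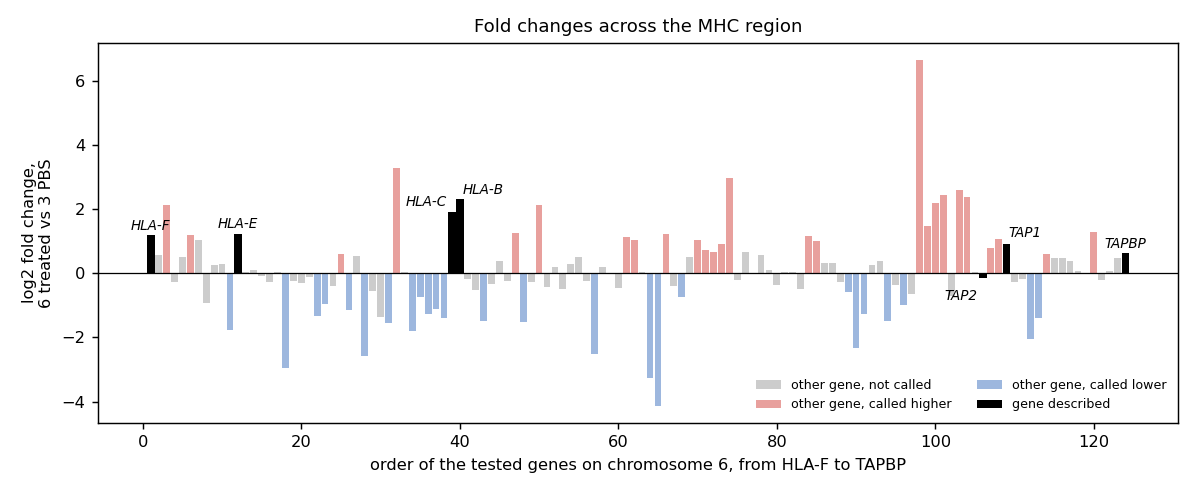
Log2 fold change in all treated compared with PBS libraries (vertical axis) of the genes tested in the MHC region, in their order along chromosome 6 from HLA-F to TAPBP (horizontal axis). The 7 genes described here are black and named. They stand among genes called higher and lower. The tallest bar is HLA-DRA, which had 0 counts in each PBS library, so that its height depends on how the fit treats 0 counts.

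Of the 9 genes, 7 lie in the MHC region of chromosome 6. Between the start of HLA-F and the end of TAPBP the tables list a further 125 genes, of which 117 were tested. Of these, 26 (22.2%) were called higher and 25 (21.4%) lower in all treated libraries, against 15.2% and 17.1% of all genes tested, and their median log2 fold change was 0.02. Genes higher and lower after treatment thus lay side by side in the region, and B2M, on another chromosome, rose with the heavy chains.

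Levels of genes that mark other cell types moved with treatment as well. Their counts of calls stand beside 15.2% of all genes tested called higher and 17.1% called lower in all treated libraries. The summed level of macrophage markers, of which 10 of 15 were listed in both tables, was 9.61 to 12.3 CPM in PBS and 27.4 to 50.4 CPM in treated libraries, and 6 rose and 1 fell of 9 tested. CD163, MRC1, C1QA, C1QC and TYROBP were not listed in both tables. CSF1R stood at 2.65 ± 0.198 CPM in PBS and 7.90 ± 1.35 and 11.7 ± 2.49 CPM in the treated groups. LYZ had the largest rise (log2 fold change 3.29, SE 0.41, adjusted p 9.33e-05). MSR1 fell (-1.30, SE 0.40, adjusted p 0.0176), and CD14 and FCER1G were not called (adjusted p 0.187 and 0.496). CD68 stood at or below 0.122 CPM in every library and was not tested. Other leukocyte markers summed to 150 to 612 CPM in PBS and 1186 to 1669 CPM in treated libraries, with 3 higher and 1 lower of 8 tested, and S100A9 alone made up 410 ± 244 CPM in PBS and 1458 ± 253 and 1476 ± 145 CPM in the treated groups. Without S100A8 and S100A9, which epithelial cells also express, the remaining 7 of 13 markers listed in both tables summed to 3.84 to 4.77 CPM in PBS and 3.12 to 4.27 CPM in treated libraries. This sum joins genes called in opposite directions. CD8A stood at 2.73 ± 0.281 CPM in PBS and 1.33 ± 0.169 and 1.54 ± 0.205 CPM in the treated groups. It was called lower (log2 fold change -0.95, SE 0.18, adjusted p 0.00125). PTPRC, the common leukocyte antigen, stood at 0.668 ± 0.0771 CPM in PBS and 1.64 ± 0.241 and 1.45 ± 0.370 CPM in the treated groups. It was called higher (log2 fold change 1.19, SE 0.24, adjusted p 0.00183).

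Fibroblast markers summed to 1578 to 2557 CPM in PBS and 1742 to 2964 CPM in treated libraries (6 higher and 1 lower of 13 tested), and endothelial markers to 10.7 to 13.1 CPM and 17.2 to 21.2 CPM (2 higher and 0 lower of 8). All 10 skeletal muscle markers were called higher by edgeR. DESeq2 gave no adjusted p for any of the 10. Against PBS, edgeR called 7 of the 10 in each conjugate group. DESeq2 called 7 with P-DXd-titled xenografts, giving the other 3 no adjusted p, and 6 with T-DXd-titled ones. Of 8 epithelial and PC3 markers 2, KRT8 and KRT18, were called higher by edgeR in all treated libraries, where DESeq2 called 3. In each conjugate group against PBS, edgeR called 3 higher. The part of these cell types in the class I result was not tested. In P-DXd-titled replicate 2, the library with most muscle RNA, 6 of the 9 genes, HLA-B, HLA-C, HLA-E, HLA-F, TAP1 and NLRC5, stood at their lowest level among the 6 treated libraries. This library still lay above every PBS library for all of these but NLRC5.

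The genes whose pattern was most like that of HLA-B and B2M were sought over the 9 libraries, leaving out the other HLA loci because they can share reads. By Pearson's r of log2 CPM, HLA-B was closest to LMAN2L (0.998), IRF1 (0.997) and BTN3A3 (0.997), among 62 of 15054 genes at 0.99 or above, and B2M to RNF114 (0.998), APH1A (0.994) and TMEM230 (0.994), among 21 of 15053. BTN3A3, a butyrophilin, stood at 29.4 ± 4.49 CPM in PBS and 91.3 ± 16.3 CPM in the P-DXd-titled group, and RNF114 at 210 ± 20.7 CPM and 289 ± 16.3 and 283 ± 13.9 CPM. The points share the libraries and the split between PBS and treated, which by itself gives high values of r, so these are descriptions only. Within groups, the level of HLA-B was lowest in the same library as that of HLA-C, B2M and TAP1, in each of the 3 groups. TAP2 was lowest in that library too in both treated groups (61.8 CPM in P-DXd-titled replicate 2 and 60.4 CPM in T-DXd-titled replicate 1). Only in PBS did TAP2 differ, being highest in replicate 1, in which the others were lowest.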

How the data were processed

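Counts of 9 PC3 xenograft libraries were used, grouped by sample title. The authors trimmed reads (Cutadapt), aligned them to GRCh38 (STAR) and counted reads per gene (featureCounts), as the study's methods give it, and their raw counts were deposited in 2 tables of 16098 and 16114 genes. The PBS counts were identical for the 16008 genes in both. Removal of mouse reads and use of strand are not given in the sources used here. Only 44 of 15869 gene identifiers found in GENCODE release 44 had the same coordinates there, so positions are given as listed.

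Counts were scaled to CPM by TMM and tested with edgeR 4.0.16 in R 4.3.3 (filterByExpr, two-sided quasi-likelihood F test, Benjamini-Hochberg adjustment over all genes tested), on the 6 libraries compared or, for both conjugates against PBS, on all 9. Intervals are 95% confidence intervals. The method was tested on simulated counts. A further promoter motif that was searched is not reported here. Ratios were tested by exact permutation in scipy 1.17.1. The genes, lists and tests were chosen with earlier results of these data known. All 9 genes were named. So were, of each pathway or class II list, the called genes with the 2 largest rises and the 2 largest falls. Some others were named for their role after their values were seen. Of the cell type markers only a part was named, also after their values were seen. Alternatives were DESeq2 1.42.0, RLE or upper quartile factors, other filters (none, or 10 counts in every library), no minimum fold, a fit of all 9 libraries, a block on a digit of the code in the title, and leaving out each library.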

Additional observations from a re-analysis of the deposited data

How the results depend on the processing

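The number of the 9 genes called higher was 7 in each comparison with PBS under DESeq2, RLE factors, upper quartile factors, both other filters, a fit of all 9 libraries where it applied and no minimum fold. It was 6 where TAPBP fell below the minimum fold, namely without PBS replicate 1 in all 3 comparisons (log2 fold change 0.54 for all treated, 0.58 for P-DXd-titled and 0.50 for T-DXd-titled libraries), and in the T-DXd-titled group also without T-DXd-titled replicate 2 (0.56) and with a block on a digit of the code in the title (0.56). No other gene changed its call, 0 were called between the conjugate groups under any alternative, and the summed HLA counts kept their calls. TAP2 and NLRC5 were not called under any alternative, and over the alternatives TAP2 ran from -0.27 to 0.05 on the log2 scale when both conjugate groups were set against PBS. Leaving out a PBS library leaves a smallest p of 0.0714 in the exact permutation test, so the ratios could not reach 0.05. The difference in mean log2 ratio ran from 0.77 to 0.81 for HLA-B to B2M, from 0.31 to 0.44 for HLA-C to B2M, from 0.35 to 0.45 for HLA-B to HLA-C and from 0.79 to 1.19 for TAP1 to TAP2 over leaving out each library.

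Precision was limited by 3 libraries per group, not by depth, since each of the 9 genes had at least 1393 counts in every library. PBS libraries were deeper than treated libraries, so depth and treatment cannot be told apart here.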
